A study of Mus musculus with 12 samples.

Results

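Transcripts that were measurable in untreated macrophages and could no longer be measured after lipopolysaccharide (LPS) were described in RAW264.7 cells, a mouse macrophage line derived from a virus-induced tumour. A probe of the array was a member when it was flagged well above background on all 3 DMSO arrays and on 0 of 3 LPS arrays, and when its mean log2 quantile-normalized signal was lower by at least 2 in LPS than in DMSO. Of 60915 probes, 263 were members. Probes named as lincRNAs by the array maker were left out by the rule, and 3 of these and 1 probe with a flagged outlier spot met its other limits. RNA of 4 groups was hybridised to 12 arrays, 3 per group. The DMSO group received dimethyl sulfoxide, the solvent, for 24 h, the AdipoAI group received AdipoAI for 24 h, and the AdipoAI+LPS group received AdipoAI for 24 h and then LPS at 100 ng/ml for 6 h. The LPS group received LPS for 6 h, and whether its cells had the solvent first, the concentration of its LPS and the concentration of AdipoAI are not given in the sources used here. All groups were cultures of 1 transformed cell line, and nothing in the labels says that the replicates were separate cultures, so p-values measure only the spread between these arrays.

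LPS is a component of the outer membrane of Gram-negative bacteria. Macrophages sense it through the receptor TLR4, and the signal passes through NF-κB, interferon regulatory factors and MAP kinases to a large programme of induced cytokine and chemokine genes. The same response lowers the RNA of many genes of the resting cell, through less transcription and through RNA decay. AdipoAI is a small-molecule agonist of the adiponectin receptors, and adiponectin, a hormone of fat tissue, is known to dampen inflammatory responses of macrophages. The comparison of AdipoAI+LPS with LPS asks whether transcripts lost with LPS could still be measured in cells that had AdipoAI first.

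None of the 263 members could be given a gene name, since the files name them by the array maker's identifiers and no table used here pairs these with genes. Whether a member is an mRNA or a lncRNA, its place in the genome and its sequence are therefore not given, and the macrophage identity of the cells was not checked against marker genes. Each member was measured by 1 spot per array. Between 29298 and 32969 probes were well above background per array, and 3 arrays per group limit the precision. Scanning took place in 2 batches, of which the first had all DMSO and LPS arrays and AdipoAI replicates 1 and 2, and the second had AdipoAI replicate 3 and all AdipoAI+LPS arrays.

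The members were chosen by their DMSO and LPS signals, which are given as a description. On the log2 scale the group means of the members in DMSO ranged from 3.35 to 9.25, with a median of 4.70. In LPS they ranged from 1.09 to 3.22, with a median of 1.90. Probe signals were low for most members, and 245 of 263 (93.2%) had a DMSO mean under 6.09, the median of the 33692 probes that were well above background on at least 3 of 12 arrays. Signals of different probes also depend on the probe, so this says nothing of RNA amounts. The lowest log2 signal that was still well above background lay between 3.08 and 3.69 on the arrays, so that many members stood only a short way above this limit in DMSO. The members just inside the limit on the fall had differences of 2.00355 and 2.00376, and the probes just outside had 1.99721 and 1.9968. Another 374 probes were well above background on all DMSO and no LPS arrays with a smaller difference.

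A signal below the limit is only a bound. For spots not significantly above background the scanner's software had written a substitute value, which was the same for all such spots on 3 of the arrays, and 140 of the 263 members carried one on at least 1 LPS array. The fall from DMSO to LPS was therefore also expressed as the DMSO mean over the LPS limit of detection. By this bound the median member was at least 2.44-fold higher in DMSO than in LPS, 170 members were at least 2-fold higher and 49 at least 4-fold higher. For 1 member the bound was below 1 and no fold is given. The largest fall belonged to the member with the highest DMSO signal, with log2 signals of 9.55, 9.22 and 8.98 in DMSO and 3.20, 2.34 and 1.78 in LPS. It was at least 57.1-fold higher in DMSO.

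**Figure D1:**
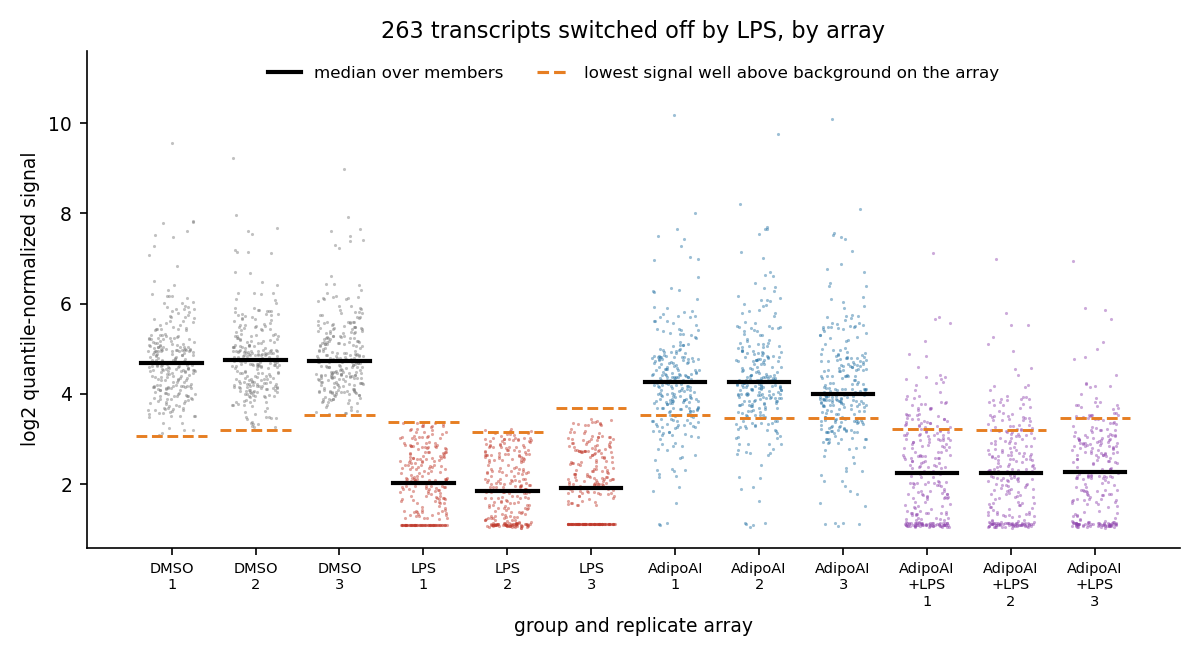
Log2 quantile-normalized signal (vertical axis) of the 263 members on each of the 12 arrays (horizontal axis). Each point is 1 member, black bars are medians over members and dashed bars mark the lowest signal well above background on that array. Medians lie at 4.68 to 4.74 in DMSO, 1.85 to 2.02 in LPS, 4.002 to 4.26 in AdipoAI and 2.24 to 2.27 in AdipoAI+LPS, and the rows of points near 1.1 are substitute values.

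With AdipoAI alone most of these transcripts remained measurable. AdipoAI replicates 1, 2 and 3 detected 200, 214 and 182 of the 263 members, where detected means flagged well above background. The limit of detection was 3.53, 3.46 and 3.47 on these arrays, beside 3.08, 3.20 and 3.52 on the DMSO arrays. What the limits add to the counts was not tested. All 3 AdipoAI arrays detected 165 members (62.7%), beside 81.9% of all 33692 probes and 92.9% of the 28652 probes detected on all DMSO arrays. Another 39 members were detected on 2 AdipoAI arrays, 23 on 1 and 36 on 0 (13.7%, beside 6.39% of all probes). Of the 374 probes with the smaller fall, 29.9% were detected on all AdipoAI arrays and 25.7% on none. No test of the difference between these sets was made, since the rule split them by their DMSO and LPS signals.

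The median level of the members with AdipoAI alone, 4.12, lay between those in DMSO and LPS and nearer to DMSO. The median difference of members, AdipoAI minus DMSO, was -0.56 on the log2 scale, beside -0.03 over all 33692 probes. The AdipoAI mean was below the DMSO mean in 215 of 263 members. Since high DMSO signals chose the members, some of this difference is built into the choice, and it was not tested. In 66 members (25.1%) the AdipoAI mean was lower by at least 1 and all AdipoAI arrays lay below all DMSO arrays, beside 2.71% of all probes. In 6 members (2.28%) it was higher by at least 1 without overlap, beside 2.98% of all probes. All AdipoAI arrays lay above all LPS arrays in 244 members (92.8%), beside 26.1% of all probes, and the choice of members by low LPS signals favours this order.

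The 36 members detected on none of the AdipoAI arrays had a median DMSO mean of 4.02. Their median difference from DMSO was -1.30. As a bound, DMSO was at least 1.44-fold higher than AdipoAI at the median and at least 4.01-fold higher at most, over the 34 members whose bound was not below 1. Thus 5 of the 36 were at least 2-fold lower with AdipoAI alone. Of the 36, 35 were detected on no AdipoAI+LPS array either.

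With AdipoAI before LPS most members stayed below detection. The AdipoAI+LPS arrays detected 47, 49 and 28 members. Detection was present on all 3 arrays in 20 members (7.6%), beside 84.3% of all probes, and it was absent on all 3 in 191 members (72.6%), beside 4.13%. Between these, 40 members were detected on 1 array and 12 on 2. Among the probes with the smaller fall, 8.56% were detected on all 3 AdipoAI+LPS arrays and 52.1% on none. Of the 191 undetected members, 135 had a mean at least 1 below the limit on the log2 scale and 11 lay within 0.5 of it, and with the limit lowered by 0.5 the count on all 3 arrays was 48 in place of 20. Leaving out LPS replicate 1 or LPS replicate 2, which widens the membership, gave 32 and 31 members detected on all 3 arrays.

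For comparison, the mirrored limits were applied. They gave 280 probes that were well above background on all LPS and no DMSO arrays with a rise of at least 2. Of these, 183 (65.4%) were detected on all 3 AdipoAI+LPS arrays, beside 84.3% of all probes. On none of the AdipoAI+LPS arrays 50 (17.9%) were detected, beside 4.13% of all probes. This is the counterpart of the 7.6% of members with detection on all 3. On none of the AdipoAI arrays 226 (80.7%) were detected, beside 6.39% of all probes.

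**Figure D2:**
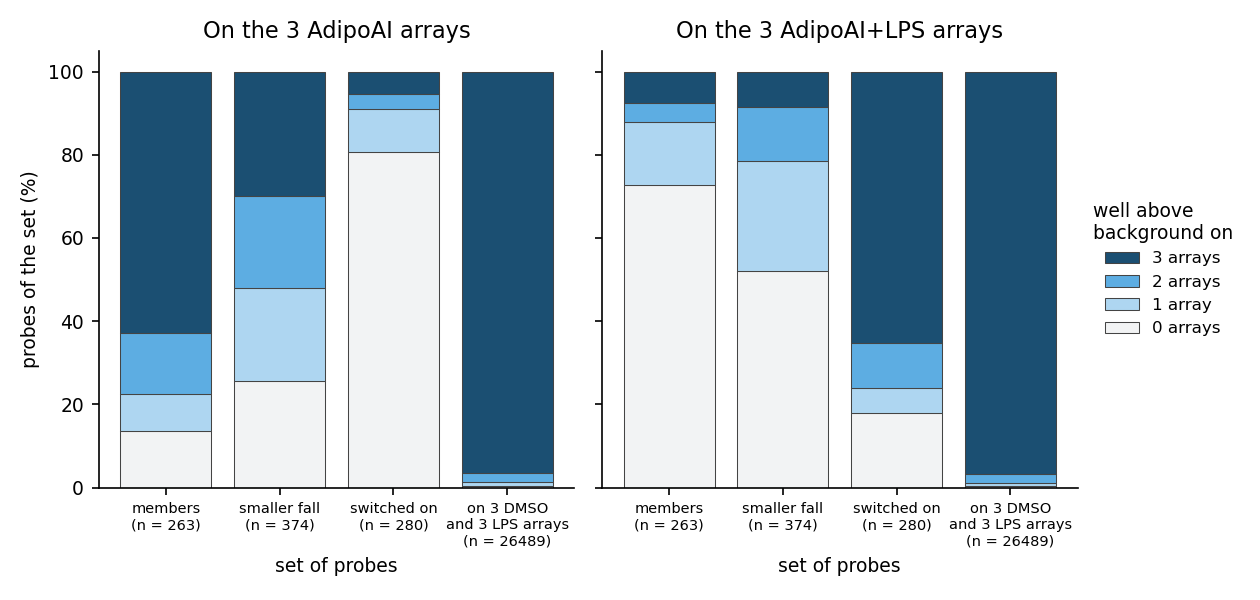
Share of probes (vertical axis, percent) well above background on 0, 1, 2 or 3 of the AdipoAI arrays (left) and of the AdipoAI+LPS arrays (right), for the 263 members, the 374 probes with a smaller fall, the 280 probes switched on by LPS and the probes detected on all DMSO and all LPS arrays. Members were detected on all 3 arrays in 62.7% with AdipoAI and in 7.6% with AdipoAI+LPS.

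The median level of the members with AdipoAI+LPS was 2.21, beside 1.90 with LPS. The median difference of members, AdipoAI+LPS minus LPS, was 0.25 on the log2 scale, beside -0.02 over all probes, and it turned to -0.11 when signals under the limit were raised to it. In 39 members (14.8%) the AdipoAI+LPS mean was higher by at least 1 without overlap, beside 3.25% of all probes, and in 3 (1.14%) it was lower by at least 1, beside 3.16%. These 2 groups lie in different scans, and with the scan as a block the median was 0.50. Only the AdipoAI group lies in both scans, so that block rests on AdipoAI replicate 3 against AdipoAI replicates 1 and 2. The value of 0.50 therefore depends on 1 array of the second scan and cannot separate AdipoAI from the scan. The LPS signals chose the members, so the difference is a description. All AdipoAI+LPS arrays lay below all DMSO arrays in 249 members (94.7%), beside 30.6% of all probes, and here too the choice by high DMSO signals favours the order.

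AdipoAI+LPS vs. AdipoAI was the comparison with LPS whose arrays the rule did not use. Its p-values still take their spread from all 4 groups, and so also from the DMSO and LPS arrays that chose the members. Of 263 members, 227 (86.3%) were lower in AdipoAI+LPS at an adjusted p under 0.05 in limma, beside 19% of all probes. None was higher in limma, also at an unadjusted p under 0.05, beside 13.3% of all probes called higher. When limma was fitted on only the 6 arrays of this comparison, 217 members were called lower. The share of all probes called in that fit is not given, so the 217 cannot be set against it. At the threshold that the methods give (log2 fold change 1.5 or larger in size, p under 0.05 without adjustment) 181 members were lower, beside 2.88% of all probes, and 0 higher, beside 4.04%. With the scan as a block 163 members were called lower, beside 11.5% of all probes, and 1 was called higher, beside 8.63%. The median difference of members was -1.91 on the log2 scale, beside -0.03 over all probes, and -1.78 within the second scan, which holds 1 AdipoAI array. The mean was lower in 262 members, and in 230 (87.5%) all AdipoAI+LPS arrays lay below all AdipoAI arrays, as in 24.5% of all probes. A difference of at least 1 without overlap was found in 217 (82.5%), beside 7.53%. The median standard error of a member's log2 fold change was 0.31, against 0.19 over all probes.

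Loss of detection in this comparison was also common. Of the members, 104 (39.5%) were detected on all 3 AdipoAI arrays and on none of the AdipoAI+LPS arrays, beside 0.864% of all probes. As a bound, these were at least 2.10-fold higher in AdipoAI than in AdipoAI+LPS at the median, with a range from at least 1.37-fold to at least 6.17-fold. The size of the log2 difference depends on the substitute values. With signals under the limit raised to it, the median difference was -0.80 and 170 members (64.6%) were called lower, beside 18.4% of all probes. Of the 36 members not called lower, 11 were well above background on none of the AdipoAI arrays and 10 were detected on all of them.

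**Figure D3:**
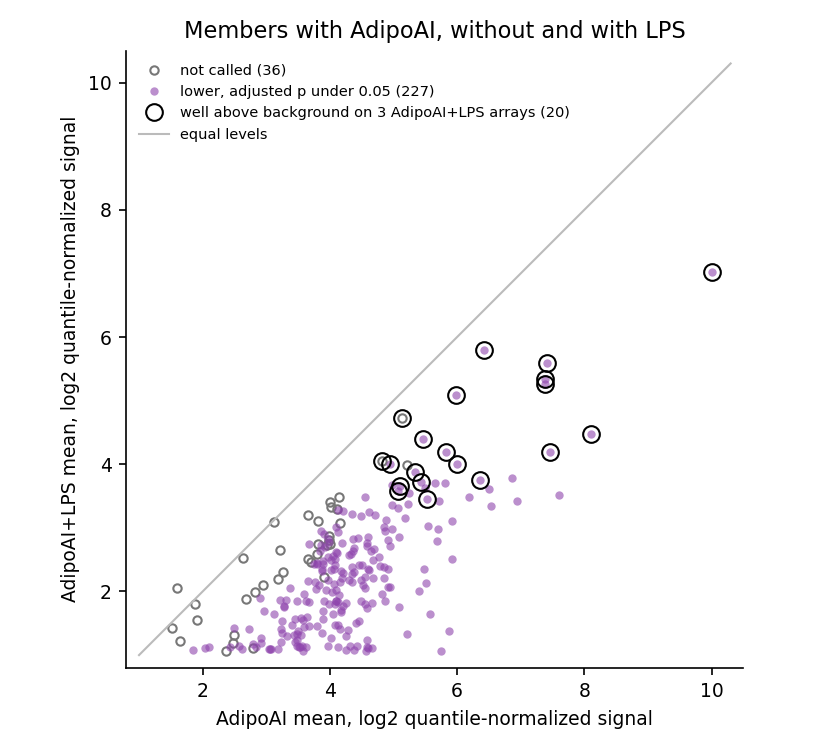
Mean log2 quantile-normalized signal of each member with AdipoAI (horizontal axis) and with AdipoAI+LPS (vertical axis), 3 arrays per group. Filled points are the 227 members called lower by limma, open grey points the 36 not called, black rings the 20 members detected on all 3 AdipoAI+LPS arrays, and the line marks equal levels. In 262 members the point lies below the line.

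The 20 members with restored detection were all detected on all 3 AdipoAI arrays. Their AdipoAI+LPS means ranged from 3.46 to 7.02 with a median of 4.19 on the log2 scale. Over LPS they were higher by at least 1.71-fold at the median, with a range from at least 1.03-fold to at least 12.2-fold, and 8 of the 20 were at least 2-fold higher. Restored detection did not mean the DMSO level. In 13 of the 20 (65%) all AdipoAI+LPS arrays lay below all DMSO arrays, beside 30.6% of all probes. In 4 the AdipoAI+LPS mean was at or above that of DMSO. In 18 (90%) the level was called lower than with AdipoAI alone, beside 19% of all probes.

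The same 20 members were then set against the undetected ones in cells without LPS. The median difference AdipoAI minus DMSO was 0.27 in the 20 and -0.72 in the 191 undetected members. The 20 also had higher signals without AdipoAI. Their median group mean was 5.33 in DMSO and 2.44 in LPS, against 4.60 and 1.76 in the 191. The split by detection thus also sorts members by signal, and the 2 were not separated. The AdipoAI mean was above the DMSO mean in 15 of 20, against 18 of 191. Over the 263 members the difference AdipoAI minus DMSO and the difference AdipoAI+LPS minus LPS had a Pearson r of 0.59, and 0.55 with signals under the limit raised to it. In 191 of the 263 both signals of the latter difference were not well above background, and such values carry little order. These differences share no arrays, though the members share their choice on the DMSO and LPS arrays, the AdipoAI arrays lie in both scans, and members are not independent replicates, so no test is given.

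**Figure D4:**
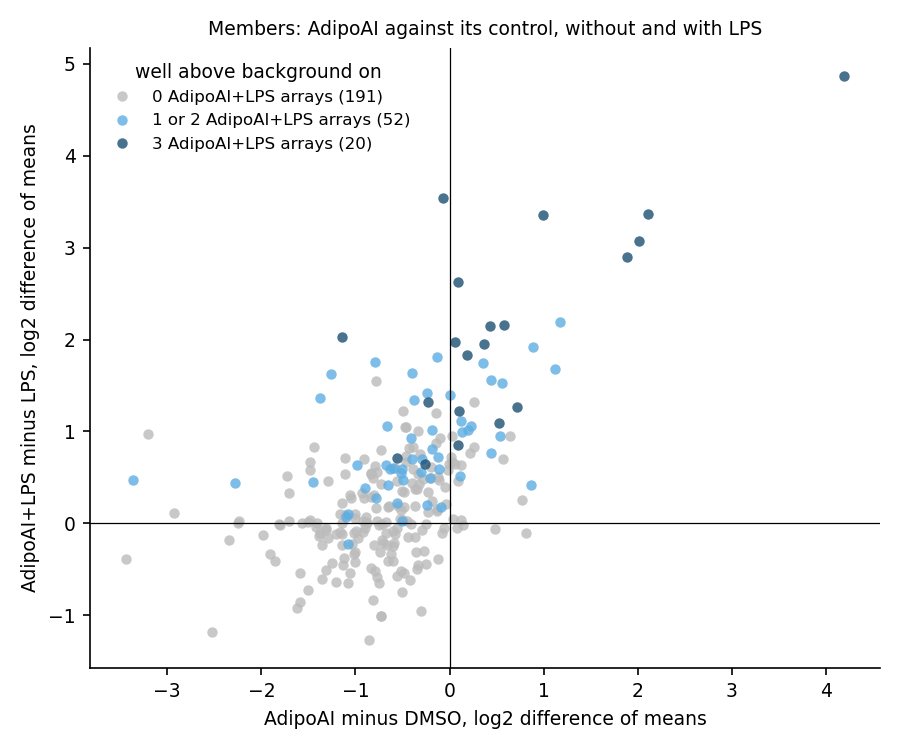
Difference of group means on the log2 scale for each of the 263 members, AdipoAI minus DMSO (horizontal axis) and AdipoAI+LPS minus LPS (vertical axis). Colour gives the number of AdipoAI+LPS arrays on which the member was well above background. The 20 members detected on all 3 of them have a median of 0.27 on the horizontal axis and the 191 detected on none have -0.72.

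The restored member that stood highest over LPS, also by the bound, was ASMM10P048871. Its log2 signals were 5.93, 5.71 and 5.80 in DMSO and 2.51, 2.83 and 1.11 in LPS. With AdipoAI alone they were 10.17, 9.75 and 10.09, and with AdipoAI+LPS 7.12, 6.99 and 6.94. The AdipoAI arrays were the highest of all and the AdipoAI+LPS arrays lay above those of DMSO, with no overlap between groups. ASMM10P048871 was at least 12.2-fold higher in AdipoAI+LPS than in LPS. AdipoAI+LPS was lower than AdipoAI by limma, with a log2 fold change of -2.99 (SE 0.35, adjusted p = 7.56e-05).

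The other restored member that the naming rule gave was ASMM10P021712. The rule took the difference from an LPS mean of 1.56, which lies under the limit. By the bound over LPS, which does not use values under the limit, ASMM10P021712 ranked 6 of 20. Its log2 signals were 6.01, 6.10 and 6.05 in DMSO and 1.43, 1.11 and 2.13 in LPS. With AdipoAI alone they were 5.91, 6.34 and 5.69, and with AdipoAI+LPS 5.17, 5.11 and 5.01. AdipoAI alone overlapped DMSO, and AdipoAI+LPS lay below both and above LPS. ASMM10P021712 was at least 3.21-fold higher in AdipoAI+LPS than in LPS. The log2 fold change of AdipoAI+LPS vs. AdipoAI was -0.89 (SE 0.24, adjusted p = 0.0153 by limma), and this call was lost with the scan as a block (adjusted p = 0.254), with the slide as a block (0.281) and without AdipoAI replicate 2 (0.0612).

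The undetected members with the largest falls behaved otherwise. ASMM10P040440 had log2 signals of 7.82, 7.13 and 7.22 in DMSO and 1.11, 1.51 and 1.11 in LPS. With AdipoAI alone they were 4.17, 4.19 and 4.22, and with AdipoAI+LPS 2.62, 1.74 and 2.28. All AdipoAI arrays thus lay below all DMSO arrays, and the LPS and AdipoAI+LPS arrays were not well above background. It was at least 15.8-fold higher in DMSO than in LPS and at least 1.86-fold higher in AdipoAI than in AdipoAI+LPS. The log2 fold change of AdipoAI+LPS vs. AdipoAI, which uses signals under the limit, was -1.98 (SE 0.24, adjusted p = 9.39e-05 by limma). With signals under the limit raised to it, this was -0.89 (adjusted p = 0.00312). The adjusted p was 0.00163 with only the 6 arrays of this comparison fitted and 0.077 with the normexp background correction.

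ASMM10P002395 had log2 signals of 7.52, 7.20 and 7.29 in DMSO and 2.02, 2.12 and 1.11 in LPS. With AdipoAI alone they were 4.92, 5.05 and 5.30, and with AdipoAI+LPS 1.37, 2.21 and 1.68. The order of the groups was that of ASMM10P040440, with AdipoAI between DMSO and the groups that had LPS. ASMM10P002395 was at least 15.2-fold higher in DMSO than in LPS and at least 3.46-fold higher in AdipoAI than in AdipoAI+LPS. The log2 fold change of AdipoAI+LPS vs. AdipoAI was -3.33 (SE 0.28, adjusted p = 6.07e-06 by limma). With signals under the limit raised to it, this was -1.79 (adjusted p = 5.45e-06). With only the 6 arrays of this comparison fitted, the adjusted p was 0.000244.

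**Figure D5:**
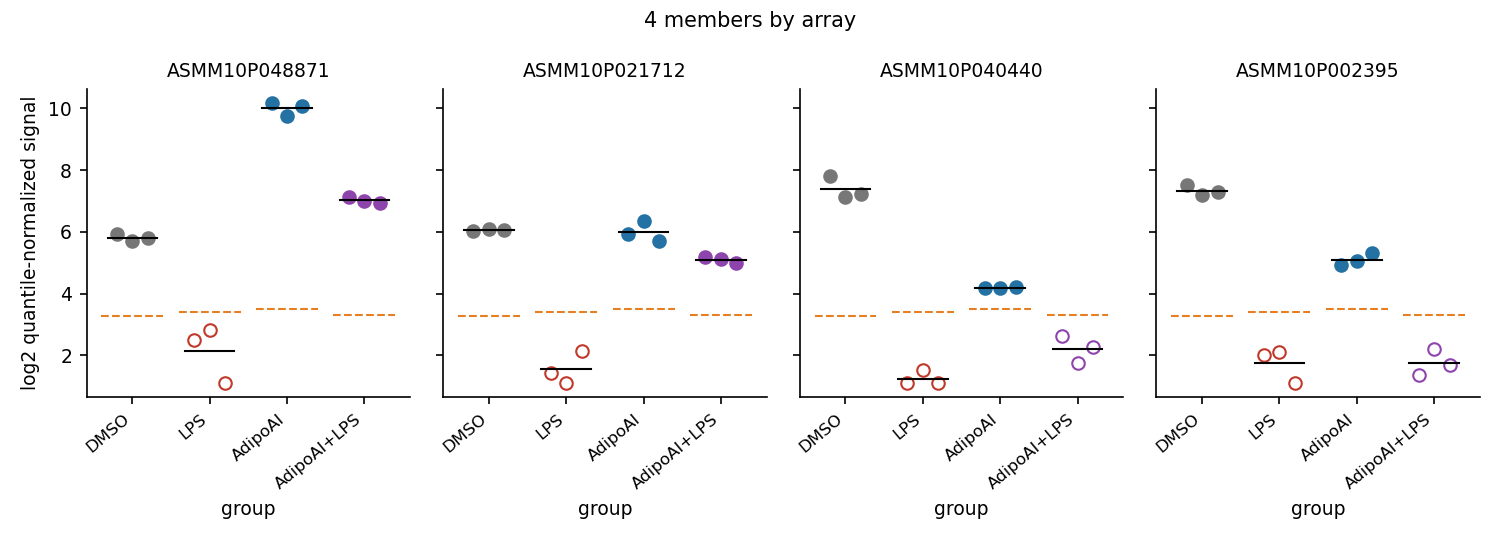
Log2 quantile-normalized signal (vertical axis) of 4 members on the 3 arrays of each group (horizontal axis). Filled points were well above background and open points were not, short black lines are group means and dashed lines mark the mean limit of detection of the group. ASMM10P048871 and ASMM10P021712 lie above the limit with AdipoAI+LPS, and ASMM10P040440 and ASMM10P002395 lie below it.

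The other 18 restored members had AdipoAI+LPS means from 3.46 to 5.80 and bounds over LPS from at least 1.03-fold to at least 5.24-fold. After ASMM10P048871 the highest AdipoAI+LPS mean was 5.80, at least 5.24-fold over LPS, in a member with means of 5.44 in DMSO and 6.43 in AdipoAI. The member with the highest DMSO signal was among the 20 as well, with log2 signals of 8.01, 8.21 and 8.11 with AdipoAI and 4.41, 4.18 and 4.82 with AdipoAI+LPS. It was at least 2.08-fold higher in AdipoAI+LPS than in LPS, and its AdipoAI+LPS mean was lower than its DMSO mean by 4.78 (log2 difference -4.78). Its log2 difference was 2.03 for AdipoAI+LPS minus LPS and -6.81 for LPS minus DMSO. It was 1 of 2 members (0.76%, beside 0.763% of all probes) with all AdipoAI arrays below all DMSO arrays and all AdipoAI+LPS arrays well above background and above all LPS arrays. That pattern was no more common among members than among all probes.

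The same counts were taken over the 49 members with a fall of at least 4-fold by the bound, which stand clear of the limit in DMSO. Of these, 46 (93.9%) were detected on all 3 AdipoAI arrays, beside 81.9% of all probes, and their choice by high DMSO signals favours this. On the AdipoAI+LPS arrays 27 of the 49 were detected on none (55.1%, beside 4.13% of all probes), 8 on 1, 6 on 2 and 8 on all 3 (16.3%, beside 84.3%). Their median difference was -0.80 for AdipoAI minus DMSO and 0.44 for AdipoAI+LPS minus LPS. In limma 47 of the 49 (95.9%) were called lower in AdipoAI+LPS than in AdipoAI, beside 19% of all probes.

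The number of members depends on how dim spots are treated. It was 169 with the authors' processed table, 49 with signals under the limit raised to it and 2 with normexp, whose offset of 50 exceeds the median member signal in DMSO (22.5 to 32.7 in scanner units). With normexp and the members kept, 195 (74.1%) were called lower in AdipoAI+LPS than in AdipoAI, beside 19.1% of all probes, and the median difference was -0.27.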

How the data were processed

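The data are 12 1-colour Agilent arrays of RAW264.7 RNA. Members, lists and tests were chosen with earlier results of these data known. The authors' deposited scanner files (Agilent Feature Extraction 11.0.1.1, per the submitters' notes) hold linear intensities per spot after background subtraction, with flags. The authors' deposited series table holds log2 values that the methods describe as quantile normalized, and its arrays had a Pearson r of at least 0.992 with the values used here.

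Controls, negative probes and the 221 probes that had an outlier-flagged spot were removed, spots were averaged for 15 probes spotted 20 times, and 60694 probes were quantile normalized on the log2 scale. Probes flagged well above background on 3 or more of the 12 arrays, 33692 in all, were fitted in limma 3.58.1 (R 4.3.3), over the 4 groups together, with Benjamini-Hochberg adjustment. Every member passed this filter through its DMSO arrays. No spot was saturated. Python 3.11.15 read the files. The fit was tested on simulated data.

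A bound ("at least N-fold") sets a group's mean against the mean, over the other group's arrays, of the lowest signal well above background or, if higher, the probe's own. Named by rule were the 2 members detected on all 3 AdipoAI+LPS arrays with the largest difference from LPS and the 2 detected on none with the largest fall. Alternatives changed the scaling, the background correction, the limits, the filter and the blocks, and left out each array.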

Additional observations from a re-analysis of the deposited data

Results flagged for a closer look

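In 2 members (0.76%, beside 0.763% of all 33692 probes) every AdipoAI array lay below every DMSO array, whereas every AdipoAI+LPS array was well above background and above every LPS array. This share was that of all probes, so the pattern was not particular to the members. The choice of members by high DMSO and low LPS signals bears on both orders, so they are a description. The difference between the effects was not tested. One is the member with the highest DMSO signal, with a log2 difference of -1.14 for AdipoAI minus DMSO and a level at least 2.08-fold higher in AdipoAI+LPS than in LPS. In the other the log2 difference was -0.56 and the level at least 1.03-fold higher.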

How the results depend on the processing

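Each array was left out once. Without a DMSO or LPS array there were 275 to 320 members. The rule does not use the AdipoAI and AdipoAI+LPS arrays, so leaving out one of those kept the 263. Over all these settings 211 to 273 members were called lower in AdipoAI+LPS vs. AdipoAI. Detected on all AdipoAI arrays were 164 to 206, and on all AdipoAI+LPS arrays 20 to 32. Medians were 0.19 to 0.35 for AdipoAI+LPS minus LPS and -0.64 to -0.51 for AdipoAI minus DMSO. For AdipoAI+LPS minus AdipoAI they were -1.95 to -1.74. A fall of at least 1 gave 525 members (362 called lower, 255 on all AdipoAI and 37 on all AdipoAI+LPS arrays, medians 0.17 over LPS and -1.36 below AdipoAI). A fall of at least 3 gave 87 (82, 66 and 10, medians 0.31, -2.46 and, for AdipoAI minus DMSO, -0.72). For the left-out arrays and these falls the share of all probes called lower is not given. Raising the limit in DMSO by 1 gave 146 members. With normexp 2 members were left, of which 2 were called lower, 2 were on all AdipoAI and 1 on all AdipoAI+LPS arrays, and with the members kept the medians were 0.032 over LPS, -0.14 against DMSO and -0.27 against AdipoAI. The 75th percentile gave 0.31 over LPS and -1.84 against AdipoAI, and the authors' table (169 members) 0.14 and -1.76. The scan as a block gave 0.50 and -1.78, and the slide as a block 0.54 and -1.78. The value within the second scan was also -1.78. Each -1.78 is the same estimate, since all set AdipoAI+LPS against AdipoAI replicate 3 alone. With signals under the limit raised to it, 49 probes met the rule and the median against AdipoAI was -0.80. The median over LPS was then -0.11, which is set by the limits of the LPS and AdipoAI+LPS arrays and not by the members. With the limit lowered by 0.5, 48 members were on all AdipoAI+LPS arrays. The causes were not tested, apart from the larger or smaller membership that the limits themselves set.

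Replicate numbers did not pair the arrays, since correlations of same-numbered arrays ran from -0.19 to 0.11 and 1 of 12 arrays was closest to its own number. With the replicate block 226 members were called lower and the median was -1.91, and the share of all probes called is not given. Of 96 refits of the 4 named members, 92 kept the direction and the call and 4 kept the direction only. Signals below the limit carry little order, and AdipoAI+LPS vs. LPS lies between scans, which only the AdipoAI arrays join in the scan block. The raised and lowered limits, the slide block, the first-scan values and the refits with members kept were chosen after seeing the data.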
